A study of Mus musculus with 20 samples.

Results

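Dasatinib plus quercetin (D + Q) was compared with its vehicle in the plantaris muscle of old mice whose muscles had not been overloaded. The comparison takes in 10 of the 20 mice of the study, the 5 labelled senolytic sham and the 5 labelled vehicle sham. Of the 22660 genes of the deposited table, 13926 reached 10 counts in 5 or more of these 10 mice and were tested. The labels give every mouse an age of 2 years, and the study used male C57BL/6J mice with no transgene. D + Q sham mice received dasatinib (5 mg/kg) and quercetin (50 mg/kg) by gavage, vehicle sham mice received the polyethylene glycol solution alone, and in both groups the skin of the hind limb was opened without removal of muscle. The other 10 mice had part of the gastrocnemius and soleus removed to overload the plantaris (mechanical overload, MOV), 5 with D + Q and 5 with vehicle. Gavage is described for days 7 and 10 with collection at day 14, whereas the description of the whole series puts the second dose of the sham mice at day 14. The time between the last dose and collection is uncertain for the sham mice. Each sample is the bulk RNA of whole muscle from 1 mouse, and no cell type was isolated.

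Dasatinib is an inhibitor of SRC family and ABL kinases, of the PDGF receptors and KIT, of ephrin receptors and of the collagen-binding DDR receptors. Quercetin is a plant flavonoid with antioxidant and kinase inhibiting activity, and the pair was introduced as a senolytic, a treatment meant to kill senescent cells by blocking the survival pathways they rely on. Muscle at rest is mainly made of multinucleated fibres, and the connective tissue around them is built by fibroblasts, vessels and tendon cells, which secrete collagens, laminins and matricellular proteins and remodel them with metalloproteinases of the MMP and ADAMTS families.

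The total estimated count ran from 17887532 to 26234518 in vehicle sham mice (median 19543043) and lay between 18535681 and 23468048 with D + Q (median 22393065), so the groups overlap in depth. A level in CPM is a gene's count scaled to a common library total after TMM scaling, which removes differences in composition between libraries. The libraries are those of muscle, since the 8 markers of muscle fibres summed to 113000 to 135000 CPM in vehicle and 124000 to 139000 CPM in D + Q mice. No pair of libraries was a duplicate and no library stood far from the others, the median distance of a mouse to the other sham mice lying between 51.5 and 57.7 (Euclidean distance of log2 CPM over the genes tested). Counting error is small for most genes at this depth, but genes near the minimum rest on few reads. The 245 genes with 10 counts in exactly 5 of the mice, just inside the minimum, had a median of 100 counts over the 10 mice. The 289 genes with 10 counts in exactly 4 mice, just outside it, had a median of 88.

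Between D + Q and vehicle sham mice 30 of the 13926 genes (0.215%) differed at an adjusted p under 0.05 (edgeR, quasi-likelihood fit, Benjamini-Hochberg adjustment), 26 higher (0.187%) and 4 lower (0.0287%) with D + Q. The rises were between 0.24 and 0.90 on the log2 scale and took in Heg1, a receptor of vessel endothelium, and Mmp14 and Thbs1, which act in the extracellular matrix. Sgk1, a kinase whose gene is induced by glucocorticoids, had the largest difference of all 30, at 0.481 times its vehicle level. An unadjusted p under 0.05 was found for 1420 genes (10.2%), of which 751 (5.39%) were higher and 669 (4.8%) lower. In 285 genes (2.05%) all 5 mice of either group lay above all 5 of the other, 160 (1.15%) with D + Q higher and 125 (0.898%) with D + Q lower, and 29 of the 30 genes called were among them. The median log2 fold change over all genes was -0.00406, and 48.6% of all genes were higher with D + Q whatever their p. With a correction for gene length and GC content 9 of the 30 genes were called, 6 higher and 3 lower, and with total counts in place of TMM factors 49 were called, 45 higher and 4 lower. The number called ran from 2 without D + Q mouse 3 or D + Q mouse 5 to 74 without vehicle mouse 5. It was 3 without each of vehicle mice 1, 2 and 3, 12 without D + Q mouse 2 and 15 without vehicle mouse 4.

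Averaged over the 26 genes that rose, each D + Q mouse stood between 0.463 and 0.597 above the vehicle mean on the log2 scale, and each vehicle mouse between -0.139 and 0.085 of it. These means describe the genes as they were chosen and test nothing. Over the 4 genes that fell, the D + Q mice stood between -0.751 and -0.587, and vehicle mouse 5, at -0.361, was the vehicle mouse nearest to them. Length was taken over all exons of a gene together, and GC content from its longest transcript. The 26 genes had a median length of 7975 bases and a median GC content of 52.4% (25 of 26 with a value), against 6100 bases and 49.2% over all genes tested. The part of length and GC content in the calls was not tested beyond the correction above.

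**Figure D1:**
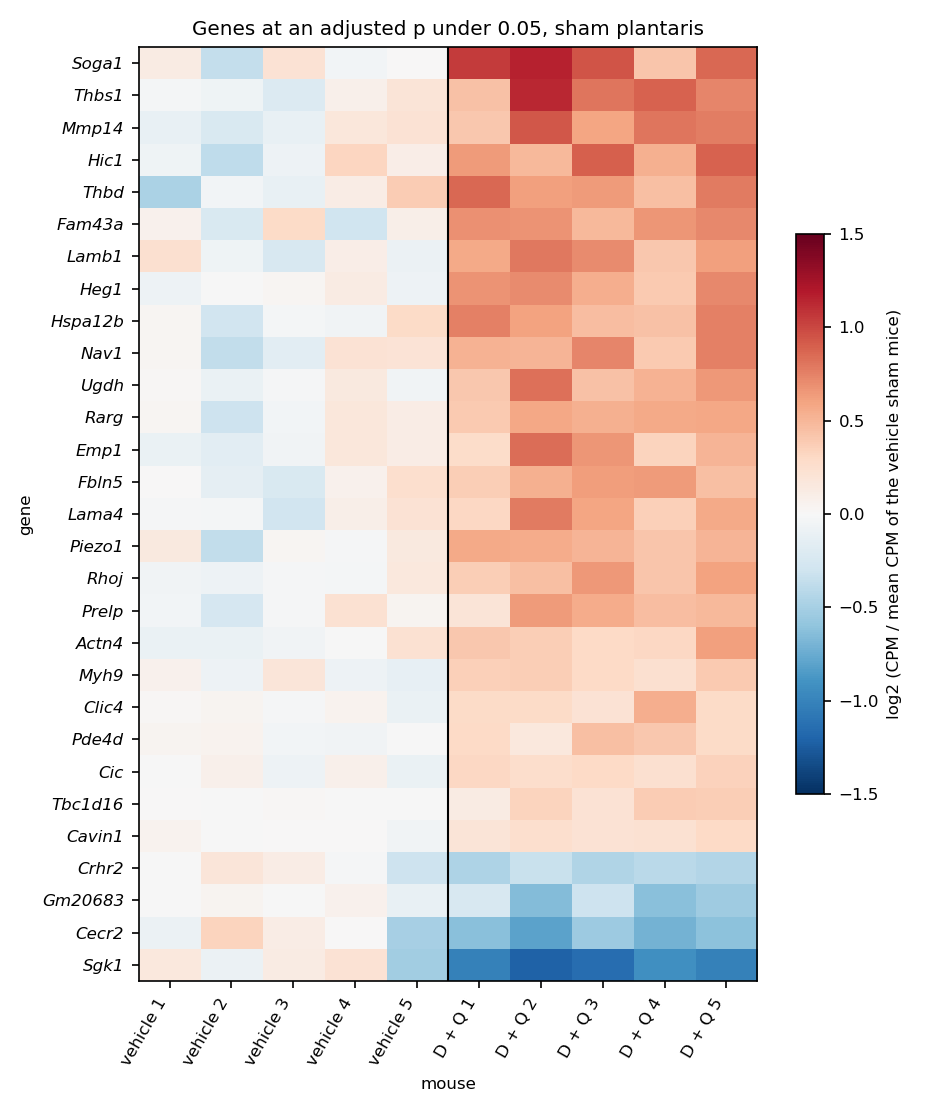
Heat map of 29 of the 30 genes at an adjusted p under 0.05 (rows) in the 10 sham mice (columns), coloured by the log2 ratio of each mouse's CPM to the mean CPM of the 5 vehicle sham mice. The 25 genes shown that rose are red in all 5 D + Q columns and the 4 that fell are blue, with Sgk1 at the bottom, where vehicle 5 is the bluest of the vehicle mice.

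The gene with the smallest p was Heg1 (chromosome 16, 33504740 to 33591946 of GRCm39), which encodes a transmembrane receptor of endothelial cells that binds the cerebral cavernous malformation proteins at their junctions. Its level was 20.7, 21.6, 22.3, 23.7 and 20.8 CPM in vehicle mice 1 to 5 and 34.7, 35.8, 31.8, 28.8 and 35.9 CPM in D + Q mice 1 to 5. The lowest D + Q mouse lay above the highest vehicle mouse. The means were 21.8 ± 1.22 and 33.4 ± 3.09 CPM (SD, n = 5 each), which is a log2 fold change of 0.61 with a standard error of 0.0723 (adjusted p = 0.00162 from edgeR). Heg1 was called with each of the 10 mice left out in turn, whereas Clic4 and Cavin1 were called in 0 of these 10 fits.

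The promoter of Heg1 is shown because the gene leads the comparison. It is the window from 250 bases before to 50 bases after the start in RefSeq's GRCm38.p6 (chr16:33684216-33684515, forward strand), and capitals mark the GC box GGGCGG on either strand, a site of SP family factors.
Heg1: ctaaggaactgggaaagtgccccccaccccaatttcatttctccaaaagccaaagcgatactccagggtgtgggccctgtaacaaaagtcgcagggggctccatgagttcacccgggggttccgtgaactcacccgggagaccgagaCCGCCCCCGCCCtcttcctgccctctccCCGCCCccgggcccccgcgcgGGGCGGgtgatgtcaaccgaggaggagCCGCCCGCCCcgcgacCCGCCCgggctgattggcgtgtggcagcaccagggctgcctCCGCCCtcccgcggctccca
A GC box stood in 63.6% of the 33 windows of 22 called genes, in 60.5% of the 13283 windows of genes tested and in 35.7% of all 32851 windows.

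Further genes of vessels and of the response to mechanical force rose. Piezo1, a cation channel opened by membrane stretch (chromosome 8, 123208437 to 123278072), lay at 12.5 to 17.9 CPM with vehicle and at 21.5 to 23.99 CPM with D + Q (log2 fold change 0.51, standard error 0.0887, adjusted p = 0.0359 from edgeR). Thbd, the thrombin receptor thrombomodulin of the vessel lining, lay at 8.07 to 14.5 CPM against 15.3 to 20.3 CPM (log2 fold change 0.68, adjusted p = 0.0417 from edgeR), with vehicle mouse 5 the highest of its group. Hspa12b, an endothelial member of the HSP70 family, and Rhoj, a small GTPase of endothelial cells, had log2 fold changes of 0.61 and 0.50. Actn4 and Myh9, the nonmuscle alpha-actinin and the heavy chain of nonmuscle myosin IIA, rose by 0.41 and 0.33. Cavin1, a coat protein of caveolae, had the smallest rise, 0.24, at 117 to 126 CPM with vehicle and 139 to 150.2 CPM with D + Q. Clic4, an intracellular chloride channel protein with a role in vessel formation, rose by 0.33, and the microtubule-associated neuron navigator Nav1 by 0.59. In each of these 9 genes the lowest D + Q mouse lay above the highest vehicle mouse. With the correction for gene length and GC content all 9 stayed higher, but none of them was called. Their adjusted p then ran from 0.0564 for Nav1 to 0.207 for Cavin1 (edgeR).

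The general markers of endothelial cells were counted beside these genes. Of 12 markers, 10 were higher with D + Q, 3 of them at an unadjusted p under 0.05 (Eng, Robo4 and Tek, log2 fold changes 0.46, 0.30 and 0.24) and 0 lower, with a median log2 fold change of 0.132. Eng, the TGF-beta co-receptor endoglin, lay at 16.2 to 20.8 CPM against 21.8 to 30.2 CPM (adjusted p = 0.0564 from edgeR and 0.00413 from DESeq2). The summed markers ranged from 211 to 262 CPM in vehicle and from 204 to 303 CPM in D + Q mice, so the groups overlapped, and 0 of the 12 markers were at or under 3 counts in every mouse. The part of endothelial RNA in the rise of Heg1, Thbd, Hspa12b and Rhoj was not tested. In bulk muscle a change in the number of cells of a type and a change in RNA per cell cannot be told apart. Among 26 genes of VEGF, angiopoietin and Notch signalling in endothelium, 3 were higher at an unadjusted p under 0.05 (Angptl4, Nrp2 and Tek) and 0 lower, with a median of 0.101. Tek is counted in both lists. At that threshold lay 25% of the endothelial markers and 11.5% of the signalling genes, against 10.2% of all genes tested. The signalling count is thus near the share of all genes. With a mouse left out the 3 endothelial markers became 1 (without vehicle mouse 2 or D + Q mouse 5) to 5 (without vehicle mouse 1 or D + Q mouse 3), their median was 0.0433 without D + Q mouse 1, and the 3 signalling genes 0 (without vehicle mouse 2) to 8 (without D + Q mouse 3).

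Of the 26 genes that rose, 6 belong to lists of matrix genes (Mmp14, Thbs1, Lamb1, Lama4, Fbln5 and Prelp). Mmp14 (chromosome 14, 54668878 to 54682821), the membrane-bound metalloproteinase that cleaves collagen and activates MMP2, stood at 8.71, 8.04, 8.72, 10.5 and 10.9 CPM in vehicle mice 1 to 5 and at 12.4, 17.9, 14.1, 16.4 and 15.98 CPM in D + Q mice 1 to 5. Its means were 9.39 ± 1.27 and 15.4 ± 2.14 CPM (SD, n = 5 each), which is a log2 fold change of 0.71 (standard error 0.112, adjusted p = 0.0177 from edgeR). Every D + Q mouse exceeded every vehicle mouse, although D + Q mouse 1 was within 2 CPM of the highest vehicle mouse. Thbs1 (chromosome 2, 117941974 to 117957616), the matricellular protein thrombospondin 1, which binds latent TGF-beta, stood at 4.597, 4.502, 4.08, 4.97 and 5.37 CPM with vehicle and 6.38, 10.3, 8.19, 8.71 and 7.81 CPM with D + Q. It rose by 0.81 (standard error 0.132, adjusted p = 0.0199 from edgeR). The highest value was that of D + Q mouse 2, and the groups again did not overlap. The laminin chains Lamb1 (chromosome 12, 31315030 to 31379658) and Lama4 (chromosome 10, 38841141 to 38998403), parts of the basement membrane around fibres and vessels, rose by 0.61 and 0.53 (adjusted p = 0.0177 and 0.0417 from edgeR). Lama4 lay at 10.6 to 15.02 CPM with vehicle and 16.1 to 22.2 CPM with D + Q.

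The elastic fibre protein Fbln5 and the leucine-rich proteoglycan Prelp rose by 0.53 and 0.48 (adjusted p = 0.0436 for both, from edgeR). Prelp was the gene among the 30 whose groups overlapped, with D + Q mouse 1 at 19.5 CPM below vehicle mouse 4 at 20.0 CPM. Ugdh, the enzyme that makes the UDP-glucuronate from which glycosaminoglycans are built, rose by 0.57 (adjusted p = 0.0417 from edgeR) and lay at 5.16 to 6.13 CPM with vehicle and 7.35 to 9.83 CPM with D + Q.

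The rest of the matrix genes were described by families, each as the number of members at an unadjusted p under 0.05 in edgeR and the median log2 fold change. Over all genes 5.39% were higher and 4.8% lower at that threshold, with a median of -0.00406. These families were drawn up with earlier results of these data known, and members of a family share their cells of origin and are not independent. Of 29 collagen chains tested, 27 were higher with D + Q, 12 of them at an unadjusted p under 0.05 and 0 lower, with a median of 0.406. The basement membrane chains Col4a2 and Col4a1 had log2 fold changes of 0.50 and 0.45, and neither they nor any other chain passed the adjusted threshold (adjusted p = 0.0644 and 0.2203 from edgeR). With DESeq2, Col4a2, Col4a1 and Col5a1 had an adjusted p under 0.05.

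Single mice weighed on the collagen values. Col1a1, a chain of the main fibrillar collagen, lay at 37.7, 34.3, 36.01, 55.5 and 48.6 CPM in vehicle mice 1 to 5 and at 50.4, 149.7, 48.9, 72.4 and 70.2 CPM in D + Q mice 1 to 5. Its log2 fold change was 0.88 and became 0.51 without D + Q mouse 2. The count of 12 collagen chains became 4 without vehicle mouse 2 and 16 without D + Q mouse 4. The summed chains stood at 550.7, 466.4, 488.5, 652.2 and 576.6 CPM with vehicle and at 669.3, 1289, 722.4, 669 and 856.8 CPM with D + Q. The sum was thus highest in D + Q mouse 2, and the lowest D + Q mouse was above the highest vehicle mouse by less than 20 CPM.

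Matricellular proteins are secreted proteins that modulate how cells meet the matrix. With all mice and TMM factors alone they had the highest share of members below an unadjusted p of 0.05 among the matrix families. Of 21 tested, 20 were higher, 12 at an unadjusted p under 0.05 and 0 lower (median 0.366), with Thbs1 and Fbln5 called. Beside these, Thbs2, Comp, Tnc and Ccn2 had log2 fold changes of 0.60, 0.73, 0.94 and 0.50 (adjusted p from 0.0923 to 0.229 in edgeR), and all 4 had an adjusted p under 0.05 with DESeq2. Tnc, the tenascin induced in loaded and injured muscle, lay at 0.8599 to 2.13 CPM with vehicle and 2.15 to 3.399 CPM with D + Q, and Comp, a cartilage and tendon protein, at 2.27 to 4.08 and 4.06 to 6.503 CPM. Summed over the family the vehicle mice had 468.9 to 570.8 CPM and the D + Q mice 534.7 to 685.1 CPM, with D + Q mouse 1 below vehicle mouse 4. With the correction for gene length and GC content the 12 became 10, a lower share than in the ADAMTS proteases (6 higher and 1 lower of 14). Without vehicle mouse 3 the 12 became 8, again a lower share (ADAMTS 6 of 14), and without vehicle mouse 4 they became 15.

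Among 14 ADAMTS proteases, 12 were higher, 6 at an unadjusted p under 0.05, and 1 was lower at that threshold (Adamts20, -0.49, named after its values were seen), with a median of 0.457. Adamts1, which cleaves the proteoglycans aggrecan and versican, lay at 25.1, 25.6, 31.4, 26.8 and 24.7 CPM in vehicle mice and 33.9, 33.4, 47.4, 38.1 and 47.99 CPM in D + Q mice, with no overlap. Its log2 fold change of 0.59 had an adjusted p of 0.0564 from edgeR, just outside the threshold, and of 0.000261 from DESeq2. Adamts12, Adamts4 and Adamts14 had log2 fold changes of 0.75, 1.44 and 0.70 at means of 0.772 to 2.23 CPM with D + Q. Of 15 matrix metalloproteinases and TIMPs, 4 were higher at an unadjusted p under 0.05 and 0 lower (median 0.211), Mmp14 being called and Mmp3, Mmp2 and Mmp11 having log2 fold changes of 0.97, 0.52 and 0.41. Mmp2 was at 20.5, 38.8, 36.99, 36.4 and 34.6 CPM in D + Q mice 1 to 5, so mouse 1 lay within the vehicle range of 18.9 to 29.9 CPM and the other 4 above it. The 4 higher members became 2 without vehicle mouse 1 and 6 without vehicle mouse 4.

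Of 27 laminins, nidogens and integrins, 10 were higher at an unadjusted p under 0.05 and 1 lower (median 0.159), the laminins Lamb1 and Lama4 being called. The linker nidogen 1, Nid1, had a log2 fold change of 0.42, Itgb5 of 0.19 and Itgb3 of 0.80, while Itga7, the laminin receptor of muscle fibres, had -0.21. With the correction for gene length and GC content the 10 higher members became 5 and the 1 lower became 2, and without D + Q mouse 5 the 10 became 5. All 12 leucine-rich proteoglycans tested were higher, 3 at an unadjusted p under 0.05 (median 0.369), namely Prelp, Fmod (0.46) and Dcn (0.31). Of 30 target genes of YAP and TGF-beta, 9 were higher at an unadjusted p under 0.05 and 0 lower (median 0.0929), among them Thbs1 and Ccn2, Tgfbr3 (0.33), Ltbp4 (0.34) and the receptor Tgfbr2 (0.22).

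**Figure D2:**
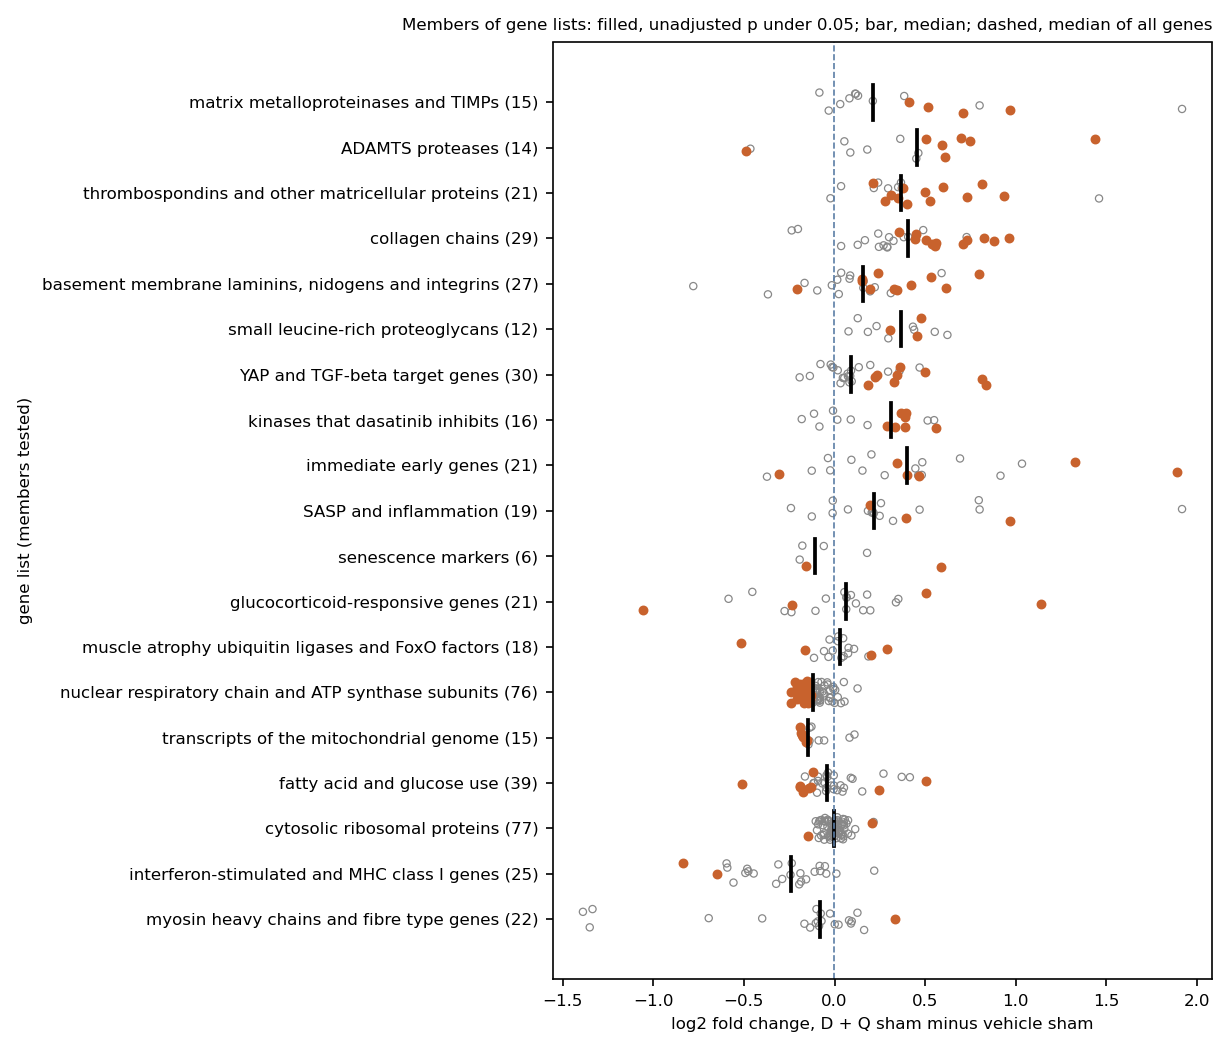
Log2 fold change, D + Q sham minus vehicle sham, of each tested member of 19 gene lists (points, filled at an unadjusted p under 0.05 in edgeR), with the median of each list (black bar) and of all 13926 genes (dashed line). The matrix lists lie mostly to the right, with medians of 0.406 for collagens and 0.366 for matricellular proteins, and the respiratory chain lists lie to the left, with medians of -0.119 and -0.144.

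The cells that make matrix were followed by their markers. Of 12 markers of fibroblasts and fibro-adipogenic progenitors, 12 were higher with D + Q, 7 at an unadjusted p under 0.05, with a median log2 fold change of 0.376, Mfap5, Dcn, Smoc2 and Col1a1 having 0.64, 0.31, 0.28 and 0.88. Their sum was 947 to 1370 CPM in vehicle and 1100 to 1730 CPM in D + Q mice. Of 10 tendon markers, 10 were higher, 5 at an unadjusted p under 0.05 (Comp, Fmod, Thbs4 and Scx at 0.73, 0.46, 0.21 and 0.33, and Mkx at 0.88, which was named after its values were seen). Their median was 0.448, and their sums were 81.2 to 120 CPM with vehicle and 118 to 147 CPM with D + Q. Both sums overlapped between the groups, and 0 members of either list were at or under 3 counts in every mouse. The fibroblast count of 7 became 1 without vehicle mouse 2 and 9 without D + Q mouse 1. Dcn, Col1a1, Comp and Fmod are also counted in the matrix families above, so the marker counts are not separate from the matrix results. The part of fibroblast and tendon RNA in those results was not tested.

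Markers of the other cell types follow. Of 12 markers of smooth muscle and pericytes, 4 were higher at an unadjusted p under 0.05 (Pdgfrb, Kcnj8, Lmod1 and Notch3, log2 fold changes 0.37, 0.32, 0.25 and 0.30). The 4 are 33.3% of the list, against 10.2% of all genes tested at that threshold. Sums over the 12 markers were 3460 to 3940 CPM in vehicle and 3460 to 4020 CPM in D + Q mice. Of 12 macrophage markers, 0 passed an unadjusted p of 0.05, and their sums ran from 58.8 to 152 CPM and from 67.1 to 160 CPM. Their median was 0.155 and became -0.0645 without D + Q mouse 2 and 0.324 without vehicle mouse 4. Of the 8 muscle fibre, 10 adipocyte, 7 Schwann cell, 5 red blood cell and 8 satellite cell markers tested, 0 passed it either. The 5 red blood cell markers were all lower, with a median of -0.501 that became -0.159 without vehicle mouse 5 and -0.324 without vehicle mouse 2, with sums of 247 to 822 CPM in vehicle and 228 to 499 CPM in D + Q mice and Slc4a1 at no more than 3 counts in every mouse. Lymphocytes and neutrophils were near the floor, with sums of 1.76 to 4.23 CPM and 0.8 to 3.85 CPM over both groups, and Cd3d, Cd3g and Klrb1c had at most 3 counts in every mouse.

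**Figure D3:**
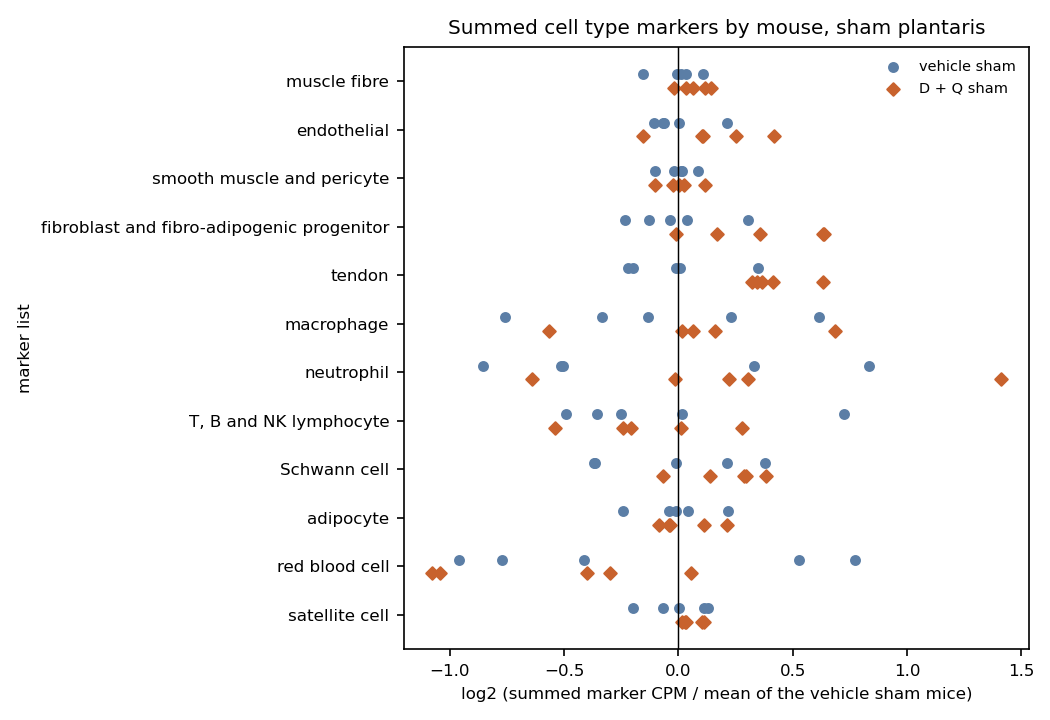
Summed CPM of 12 cell type marker lists in each sham mouse, as log2 of the ratio to the mean of the vehicle sham mice (circles, vehicle; diamonds, D + Q). The tendon and fibroblast sums of the D + Q mice lie mostly to the right of the vehicle mice, while the muscle fibre, smooth muscle, macrophage and adipocyte sums of the groups lie over each other.

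Several regulators and signalling genes also rose. Hic1, a transcriptional repressor of quiescent mesenchymal progenitors, lay at 5.996, 4.81, 5.95, 7.81 and 6.71 CPM in vehicle mice 1 to 5 and 9.75, 8.78, 11.7, 9.08 and 11.6 CPM in D + Q mice 1 to 5. It rose by 0.70 with no overlap (standard error 0.129, adjusted p = 0.0405 from edgeR). Rarg, the retinoic acid receptor gamma, and Cic, the repressor Capicua that acts downstream of receptor tyrosine kinases, rose by 0.53 and 0.29. Soga1 had the largest rise of all called genes, 0.90 (standard error 0.1602, adjusted p = 0.0361 from edgeR), and lay at 2.33 to 3.45 CPM with vehicle and 3.98 to 6.62 CPM with D + Q. Pde4d, a phosphodiesterase that degrades cAMP, was among the more abundant of the called genes and rose by 0.32, with levels of 86.5 to 92.97 CPM in vehicle and 99.9 to 123 CPM in D + Q mice. Fam43a, the membrane protein gene Emp1 and the Rab GTPase activating protein Tbc1d16 rose by 0.65, 0.54 and 0.29.

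Some of these loci overlap a gene on the other strand, Hic1 with Smg6, Thbd with Sstr4, Lamb1 with Dld, Piezo1 with Ctu2, Cic with Pafah1b3, Actn4 with Capn12, Hspa12b with Adissp, Lama4 with Fam229b and Eng with Fpgs. Whether the counting used strand is not given in the sources used here, and without strand the reads of such pairs cannot be told apart.

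Sgk1 (chromosome 10, 21758083 to 21875802 of GRCm39), the serum- and glucocorticoid-regulated kinase that controls ion channels and FOXO factors, fell by 1.06 on the log2 scale. It stood at 144, 122, 141, 151 and 89.98 CPM in vehicle mice 1 to 5 and at 64.2, 55.9, 58.7, 68.3 and 64.4 CPM in D + Q mice 1 to 5. All 5 D + Q mice lay within 13 CPM of each other, whereas vehicle mouse 5 was well below the other 4 vehicle mice and still above every D + Q mouse. The means were 129.6 ± 24.6 and 62.3 ± 4.92 CPM (SD, n = 5 each), and the standard error of the log2 fold change was 0.127 (adjusted p = 0.0177 from edgeR). Sgk1 was called under all 10 alternative settings and in 5 of the 10 fits that left out a mouse. Over all 10 of these its log2 fold change stayed between -1.16 and -0.997.

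The Sgk1 locus has 6 RefSeq start windows, and the one that holds a full glucocorticoid response element is shown (GRCm38.p6, chr10:21993640-21993939, forward strand). Capitals mark the arm AGAACA of the element, which reads TGTTCT on the other strand, and the full element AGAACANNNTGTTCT lies at bases 62 to 76 of the window, beginning 189 bases before the start.
Sgk1: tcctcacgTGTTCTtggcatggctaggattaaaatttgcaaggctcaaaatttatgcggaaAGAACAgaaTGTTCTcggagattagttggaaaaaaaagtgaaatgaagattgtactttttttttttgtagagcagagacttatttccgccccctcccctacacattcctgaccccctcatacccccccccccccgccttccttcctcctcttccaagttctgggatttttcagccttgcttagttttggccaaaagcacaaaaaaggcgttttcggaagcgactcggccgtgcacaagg
The full element was found in 3 of 32851 windows (0.009%), and of 19 genes of a list of glucocorticoid-responsive genes that have a window, 1, Sgk1, holds it. A single arm stood in 9.1% of the windows of called genes, in 12.9% of those of genes tested and in 19.0% of all windows. Among the called genes these were 3 windows of 1 gene, Sgk1. A match is a run of letters and shows no binding.

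Genes that respond to glucocorticoids were mixed in direction. Of 21 tested, 13 were higher and 8 lower (median 0.0652). At an unadjusted p under 0.05 lay 2 in each direction, 19% of the list against 10.2% of all genes tested. These became 3 higher and 4 lower without vehicle mouse 5 and 0 higher and 1 lower without vehicle mouse 1 or 3, and the median was -0.0205 without D + Q mouse 4. Tsc22d3, which encodes the anti-inflammatory protein GILZ, lay at 176, 151, 171, 171 and 135 CPM with vehicle and 123, 113, 159, 130.1 and 158 CPM with D + Q (log2 fold change -0.24, adjusted p = 0.477 from edgeR). Pdk4, the kinase that shuts pyruvate dehydrogenase in fasting, lay at 315, 382, 339, 360.4 and 654 CPM with vehicle and 723, 555, 491, 642 and 498 CPM with D + Q (log2 fold change 0.50, adjusted p = 0.485 from edgeR). Vehicle mouse 5 was the lowest of its group for Tsc22d3 and the highest for Pdk4. Angptl4, the fasting-induced inhibitor of lipoprotein lipase, lay at 1.21 to 1.93 CPM in vehicle mice 1 to 4 and at 5.21 CPM in vehicle mouse 5, against 3.51 to 8.24 CPM with D + Q. That mouse was singled out after its values were seen, so the fit without it is a description only. In that fit Pdk4 and Angptl4 had log2 fold changes of 0.74 and 1.73 (adjusted p = 0.0153 and 0.01202 from edgeR). Pdp1, Ppargc1a and Nfil3 passed an adjusted p of 0.05 there too, with -0.62, 0.38 and 0.52. With all mice none of these genes was called (adjusted p = 0.485, 0.433, 0.229, 0.341 and 0.392 from edgeR, in the order named).

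The remaining genes that fell were Crhr2, Cecr2 and Gm20683. Crhr2, a receptor of corticotropin-releasing factor family peptides that binds urocortins in muscle, lay at 42.4, 48.4, 45.9, 42.1 and 34.2 CPM with vehicle and 30.8, 33.7, 31.2, 32.2 and 31.4 CPM with D + Q. It fell by 0.42 on the log2 scale (standard error 0.0761, adjusted p = 0.0405 from edgeR). Vehicle mouse 5 was again the lowest vehicle mouse, 0.5 CPM above the highest D + Q mouse. Cecr2, a bromodomain protein of chromatin remodelling complexes, lay at 21.3, 28.6, 24.5, 22.7 and 16.1 CPM and 14.7, 12.99, 15.5, 13.9 and 14.7 CPM (log2 fold change -0.65, adjusted p = 0.0405 from edgeR). The same mouse was the lowest of the vehicle mice. Gm20683, with a log2 fold change of -0.46, overlaps Rhbdl1 and Rhot2 on its own strand, so its counts could belong to them.

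Atrophy ubiquitin ligases, FoxO factors and core clock genes were mixed in direction. Of 18 atrophy ubiquitin ligases and FoxO factors, 2 were higher and 2 lower at an unadjusted p under 0.05 (median 0.0289), with log2 fold changes of 0.29 for Foxo1, 0.20 for Foxo3, -0.52 for Foxo6 and -0.16 for Stub1. Of 19 clock genes, 1 was higher (Nfil3, 0.36) and 1 lower (Bhlhe40, -0.28), and without vehicle mouse 5 these became 3 and 3. The immediate early genes had a median of 0.398 over 21 members (0.137 without D + Q mouse 5), with 5 higher and 1 lower at an unadjusted p under 0.05. The shares at that threshold were 22.2% of the atrophy list, 10.5% of the clock genes and 28.6% of the immediate early genes. Over all genes tested it was 10.2%. The nuclear receptor Nr4a2 lay at 0.5197 to 0.862 CPM with vehicle and 0.971 to 2.47 CPM with D + Q (log2 fold change 1.33, adjusted p = 0.08297 from edgeR). Jund lay at 35.4 to 51.01 and 55.5 to 63.5 CPM, and Jun and Klf4 had log2 fold changes of 0.47 and 0.40. With DESeq2 Jund and Jun had an adjusted p under 0.05. The others past that threshold, named after their values were seen, were Nr4a3 (1.89) and, lower, Klf6 (-0.31).

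The transcripts of the kinases that dasatinib inhibits were counted next. Of 16 tested, 12 were higher, 7 at an unadjusted p under 0.05 and 0 lower (median 0.311), and 0 passed the adjusted threshold in edgeR. The 7 are 43.8% of the list, against 10.2% of all genes tested at the unadjusted threshold. Fyn, a SRC family kinase, lay at 6.76, 4.75, 5.61, 5.83 and 5.52 CPM with vehicle and 6.61, 9.83, 8.6995, 7.95 and 9.01 CPM with D + Q. D + Q mouse 1 was thus below vehicle mouse 1. The log2 fold change of 0.56 had an adjusted p of 0.08297 from edgeR and passed 0.05 with DESeq2. The ephrin receptor Ephb4, the PDGF receptor Pdgfrb and the SRC inhibitor Csk had log2 fold changes of 0.39, 0.37 and 0.33. Pdgfrb is also counted among the smooth muscle and pericyte markers. The 7 higher kinases became 5 once gene length and GC content were corrected for, 9 with total counts and 4 without vehicle mouse 2. Several of these kinases are made by vessel cells and fibroblasts, whose markers are given above, and their part here was not tested.

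By staining, the paper found very few senescent cells in sham muscle. The markers of senescence, the state of the cells a senolytic is meant to kill, gave 0 calls in edgeR. Of the 7 markers listed, 6 reached the count minimum. DESeq2 called 0 of 4 of those tested and gave no adjusted p for the other 2, Glb1 and Cdkn2b. Of the 6 tested, Glb1, the lysosomal beta-galactosidase, was higher at an unadjusted p under 0.05 (1.03 to 1.37 CPM with vehicle, 1.26 to 2.52 CPM with D + Q, log2 fold change 0.59) and Rb1 lower (-0.16), with a median over the list of -0.11 that became 0.00162 without vehicle mouse 4 and -0.0526 without vehicle mouse 3. Cdkn1a, which encodes p21, lay at 15.1, 14.7, 13.4, 12.4 and 19.6 CPM in vehicle mice and 18.2, 17.7, 11.95, 24.7 and 12.6 CPM in D + Q mice. The groups overlapped (log2 fold change 0.18, standard error 0.206, adjusted p = 0.825 from edgeR). Cdkn2b, at under 2 CPM in every mouse, Lmnb1 and Trp53 had log2 fold changes of -0.19, -0.18 and -0.06. Of 13 BCL2 family genes, 1, the death factor Bmf (0.59), was higher at an unadjusted p under 0.05 and 0 lower. At that threshold lay 33.3% of the senescence markers tested and 7.69% of the BCL2 genes, against 10.2% of all genes.

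Of 19 genes of the senescence-associated secretory phenotype (SASP) and inflammation, 15 were higher, 3 at an unadjusted p under 0.05 (Igfbp7, Mmp3 and Igfbp6, log2 fold changes 0.20, 0.97 and 0.40) and 0 lower, with a median of 0.217. The 3 are 15.8% of the list, against 10.2% of all genes tested at that threshold. Mmp3, also counted among the metalloproteinases, was at 0.2798, 1.16, 0.3397, 0.913 and 0.878 CPM with vehicle and 1.06, 1.74, 1.01, 2.09 and 1.06 CPM with D + Q, a level at which few reads decide the value. The 8 genes that the study singled out from its MOV mice were measured in sham muscle too, and 6 of them were higher at an unadjusted p under 0.05. Besides Mmp14 and Adamts1 these were Fmod (0.46), Plau (0.37), Dcn (0.31) and Igf1 (0.28), the last at 8.04, 10.02, 9.46, 10.7 and 13.5 CPM with vehicle and 12.2, 14.2, 11.8, 13.8 and 10.9 CPM with D + Q. Ddit4, the mTORC1 inhibitor REDD1, and Cryab, a small heat shock protein, had log2 fold changes of -0.24 and -0.23 with overlapping groups (adjusted p = 0.819 and 0.649 from edgeR).

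Transcripts of the respiratory chain were lower by small amounts in many genes. Of 76 nuclear subunits of the respiratory chain and ATP synthase, 69 were lower with D + Q, 27 at an unadjusted p under 0.05 and 0 higher, with a median log2 fold change of -0.119. Of them 0 were called by edgeR and 1 (Sdhd) by DESeq2. The 27 are 35.5% of the list, against 4.8% of all genes lower at an unadjusted p under 0.05. Sdhd, a membrane anchor of succinate dehydrogenase, lay at 206, 249.97, 218, 194 and 203 CPM with vehicle and 191, 179, 187, 175 and 176 CPM with D + Q, with no overlap (log2 fold change -0.24, adjusted p = 0.167 from edgeR). Atp5l, cytochrome c (Cycs) and Ndufs4 had -0.24, -0.22 and -0.20. Summed over the list, vehicle mice had 23230, 27800, 23880, 21790 and 23900 CPM and D + Q mice 24420, 21960, 21470, 20650 and 21840 CPM. Vehicle mouse 2 was the highest and D + Q mouse 1 lay above 4 of the 5 vehicle mice. The 27 lower members became 10 with total counts only, 8 without vehicle mouse 2 and 39 without D + Q mouse 1, while the median stayed negative in all of these.

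Of 15 transcripts of the mitochondrial genome, 13 were lower, 6 at an unadjusted p under 0.05 and 0 higher (median -0.144), among them mt-Atp6 (-0.19), mt-Co3 (-0.18), mt-Co1 (-0.18) and mt-Co2 (-0.17). Their sum was 150000 to 170100 CPM in vehicle mice and 126200 to 162600 CPM in D + Q mice, again overlapping, with D + Q mouse 1 the highest of its group. The 6 are 40% of the list, against 4.8% of all genes lower at an unadjusted p under 0.05. They became 3 with total counts only and 2 once gene length and GC content were corrected for. With a mouse left out they ran from 3 without vehicle mouse 1 to 10 without D + Q mouse 1. Among 16 regulators of mitochondrial biogenesis 1 was higher and 1 lower at an unadjusted p under 0.05. Ppargc1b, a coactivator, lay at 8.99, 12.8, 10.02, 9.84 and 9.03 CPM with vehicle and 7.77, 8.202, 5.57, 5.48 and 7.42 CPM with D + Q. Its groups did not overlap (log2 fold change -0.56, adjusted p = 0.112 from edgeR and 0.0213 from DESeq2). The related coactivator Ppargc1a had 0.27, with vehicle mouse 5 the highest of all 10 mice.

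Of 39 rows for genes of fatty acid and glucose use, 7 were lower and 2 higher at an unadjusted p under 0.05 (median -0.0442). Pdp1, the phosphatase that opposes Pdk4 at pyruvate dehydrogenase, lay at 135, 148, 133, 134 and 85.8 CPM with vehicle and 75.5, 91.1, 99.96, 94.5 and 85.3 CPM with D + Q (log2 fold change -0.51, adjusted p = 0.229 from edgeR and 0.00663 from DESeq2). Vehicle mouse 5 stood among the D + Q mice. The glycolytic enzymes Gapdh and Tpi1 had -0.19 and -0.17, and the uncoupling protein Ucp3 0.25. With total counts the 7 lower became 3 and the 2 higher became 4, and without vehicle mouse 2 the 7 became 3. Cytosolic ribosomal proteins gave 1 higher (Rpl10, 0.21) and 1 lower (Rpl3l, -0.15) of 77, with a median of -0.00491. Shares at an unadjusted p under 0.05 were 23.1% of the fatty acid and glucose rows and 2.6% of the ribosomal proteins, against 10.2% of all genes.

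The genes of muscle fibres, their nerve contacts and their progenitors follow, to be read against 10.2% of all genes at an unadjusted p under 0.05. Of 22 myosin heavy chains and fibre type genes, Myh8, the perinatal myosin, was higher at an unadjusted p under 0.05 (0.34) and 0 were lower. Of 13 satellite cell and myogenic factors, 3 were higher (Spry1, Heyl and Notch3, 0.30, 0.58 and 0.30). Notch3 is also counted among the smooth muscle and pericyte markers. Of 17 neuromuscular junction and denervation genes 1 was higher (Prkar1a, 0.23) and 2 lower (Chrnb1 and Colq, -0.29 and -0.33). Of 29 genes of insulin-like growth factor, insulin and mTORC1 signalling, 3 were higher and 2 lower, namely Grb10 (0.27), Igf1, Eif4ebp1 (0.26, named after its values were seen), Sesn3 (-0.24) and Trib1 (-0.38). The myostatin and activin axis gave 2 higher (Inhbb and Fstl1, 0.67 and 0.65) and 1 lower (Bmpr1a, -0.17) of 21. Heat shock and unfolded protein genes gave 0 higher and 1 lower (Hspb8, -0.16) of 27, and cell cycle genes 1 higher (Ccnd2, 0.30) and 0 lower of 13. Fstl1, a secreted glycoprotein, was at 103.2 CPM in D + Q mouse 2 and between 42.1 and 57.8 CPM in the other D + Q mice.

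Quercetin is known as an antioxidant and a ligand of the aryl hydrocarbon receptor. Of 20 NRF2 target genes, which protect against oxidants, 3 were higher at an unadjusted p under 0.05 and 0 lower (median 0.112). These 3 are 15% of the list, against 10.2% of all genes tested at that threshold. Nqo1, NAD(P)H quinone dehydrogenase, lay at 18.3, 14.6, 22.03, 19.8 and 22.04 CPM with vehicle and 23.99, 24.1, 24.3, 26.5 and 22.2 CPM with D + Q (log2 fold change 0.33, adjusted p = 0.224 from edgeR). The lowest D + Q mouse lay just above the highest vehicle mice. Srxn1, sulfiredoxin, had 0.52 with D + Q mice 1 and 4 well above the other 3, and Osgin1 0.48. Of the 6 genes of the aryl hydrocarbon receptor battery tested, Nqo1 and Arnt (0.14) were higher and Tiparp (-0.23) lower.

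Interferon-stimulated and MHC class I genes were lower in 23 of 25, 2 of them at an unadjusted p under 0.05 and 0 higher (median -0.243). The 2 are 8% of the list, near the share of all genes tested at that threshold, 10.2%. Without vehicle mouse 4 the median was -0.0747 and without vehicle mouse 5 it was -0.135, with 18 of 24 lower in both, and without D + Q mouse 3 it was -0.134. Ifi44, an interferon-induced gene at under 2 CPM in every mouse, lay at 0.5597, 0.9105, 0.453, 0.7605 and 1.19 CPM in vehicle mice 1 to 5 and 0.231, 0.368, 0.3801, 0.753 and 0.397 CPM in D + Q mice 1 to 5 (log2 fold change -0.84, adjusted p = 0.473 from edgeR). The summed list was highest in vehicle mice 4 and 5, at 442.1 and 426 CPM, against 282 to 305.8 CPM in the other vehicle mice and 244.3 to 368.9 CPM in the D + Q mice.

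The same treatment was measured in MOV muscle in mice that have no part in the sham comparison. There 0 of 15238 genes (0%) passed an adjusted p of 0.05 in edgeR and 1340 (8.79%) an unadjusted p under 0.05, 638 higher (4.19%) and 702 lower (4.61%). The paper, with DESeq2 at an FDR under 0.05, reported a large number of differentially expressed genes between these MOV groups. A DESeq2 count for MOV muscle is not given here, so the edgeR count does not stand for the paper's result. Of the 30 genes called in sham muscle, 27 had the same direction in MOV muscle, against 59.1% of the 13745 genes tested in both. The exceptions were Sgk1, Cecr2 and Hspa12b. At an unadjusted p under 0.05, 7 of the 30 differed in MOV muscle, all in the sham direction (Prelp, Soga1, Gm20683, Nav1, Crhr2, Mmp14 and Lama4, log2 fold changes 0.44, 0.49, -0.47, 0.22, -0.31, 0.40 and 0.35). In 0 of the 30 were the MOV groups apart, against 1.48% of all genes. The sham log2 fold change was the larger in size for 29 of the 30, but the genes were chosen for their sham values, so this is no finding.

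**Figure D4:**
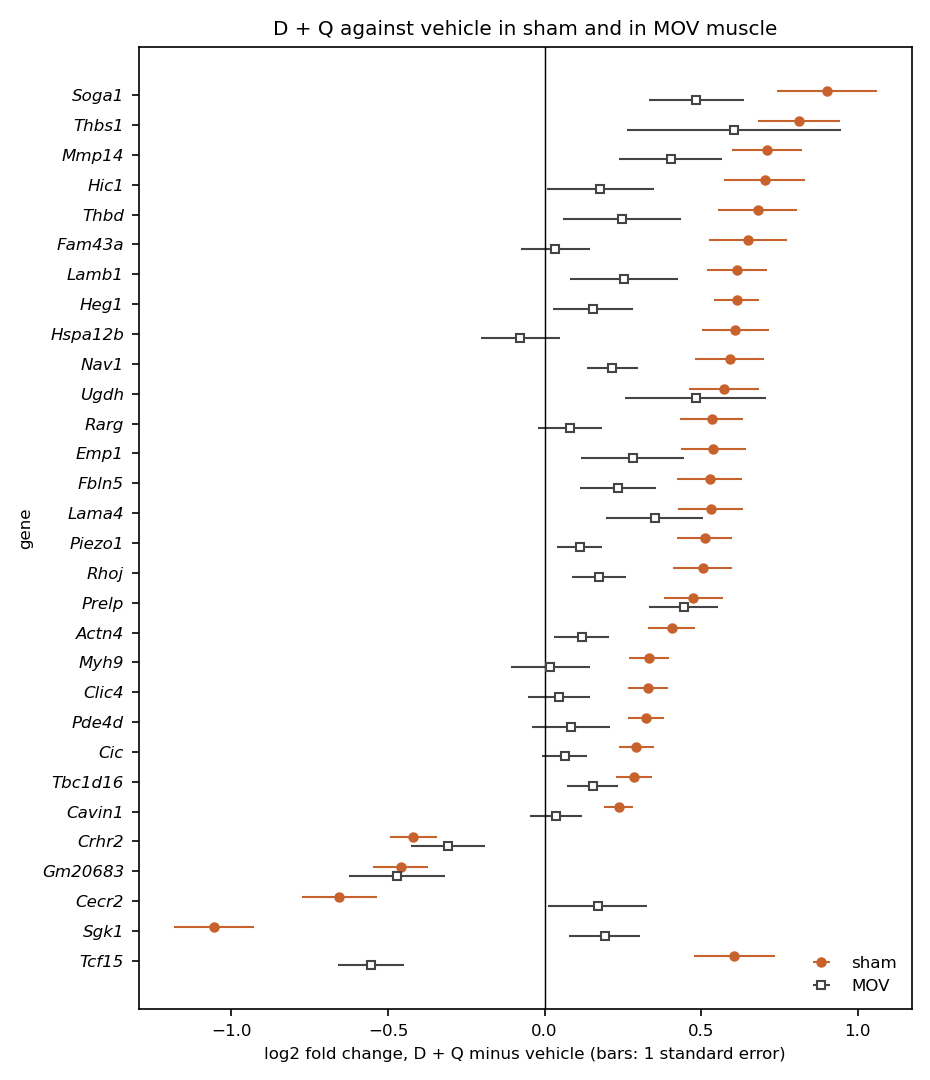
Log2 fold change, D + Q minus vehicle, with its standard error, of 29 of the 30 genes called in sham muscle and of Tcf15, in sham muscle (filled circles, 10 mice) and in MOV muscle (open squares, 10 other mice). Most genes lie on the same side of 0 with a smaller MOV value, while Sgk1, Cecr2, Hspa12b and Tcf15 lie on opposite sides.

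The difference between the effects in sham and MOV muscle was tested as an interaction over all 20 mice and 15700 genes. It passed an adjusted p of 0.05 in 2 genes (0.0127%), Tcf15 and Sgk1, and 897 (5.71%) had an unadjusted p under 0.05, among them 16 of the 30 genes called in sham. That count rests on the sham values for which the 30 were chosen, so nothing is read from it. Sgk1 lay at 71.7, 68.8, 60.01, 65.2 and 93.7 CPM in vehicle MOV mice and 83.6, 78.2, 84.7, 69.7 and 94.6 CPM in D + Q MOV mice, overlapping, with a log2 fold change of 0.19 against -1.06 in sham. The interaction was -1.25 (standard error 0.179, adjusted p = 0.00676 from edgeR), and it passed the threshold under 8 of the 9 alternatives. Vehicle sham mice 1 to 4 lay above all 10 MOV mice, a description only, since sham and MOV libraries were scaled separately.

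Tcf15 (chromosome 2, 151985474 to 151991034), a transcription factor of the early somite that is also made in the capillary endothelium of muscle, turned its direction with the surgery. In sham muscle it stood at 5.996, 4.96, 6.96, 5.63 and 5.37 CPM with vehicle and 10.5, 7.26, 8.74, 7.45 and 10.02 CPM with D + Q (log2 fold change 0.61, standard error 0.1296, adjusted p = 0.0644 from edgeR). In MOV muscle it stood at 9.91, 10.2, 11.3, 10.97 and 10.4 CPM with vehicle and 7.31, 7.51, 7.81, 7.12 and 6.15 CPM with D + Q (log2 fold change -0.55, standard error 0.104, adjusted p = 0.523 from edgeR). The treatments did not overlap in either surgery. Neither comparison alone passed the adjusted threshold in edgeR, while with DESeq2 the sham comparison did (adjusted p = 0.00483). The interaction was 1.16 (standard error 0.163, adjusted p = 0.00328 from edgeR), and it passed the threshold under all 9 alternatives and with each of the 20 mice left out.

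**Figure D5:**
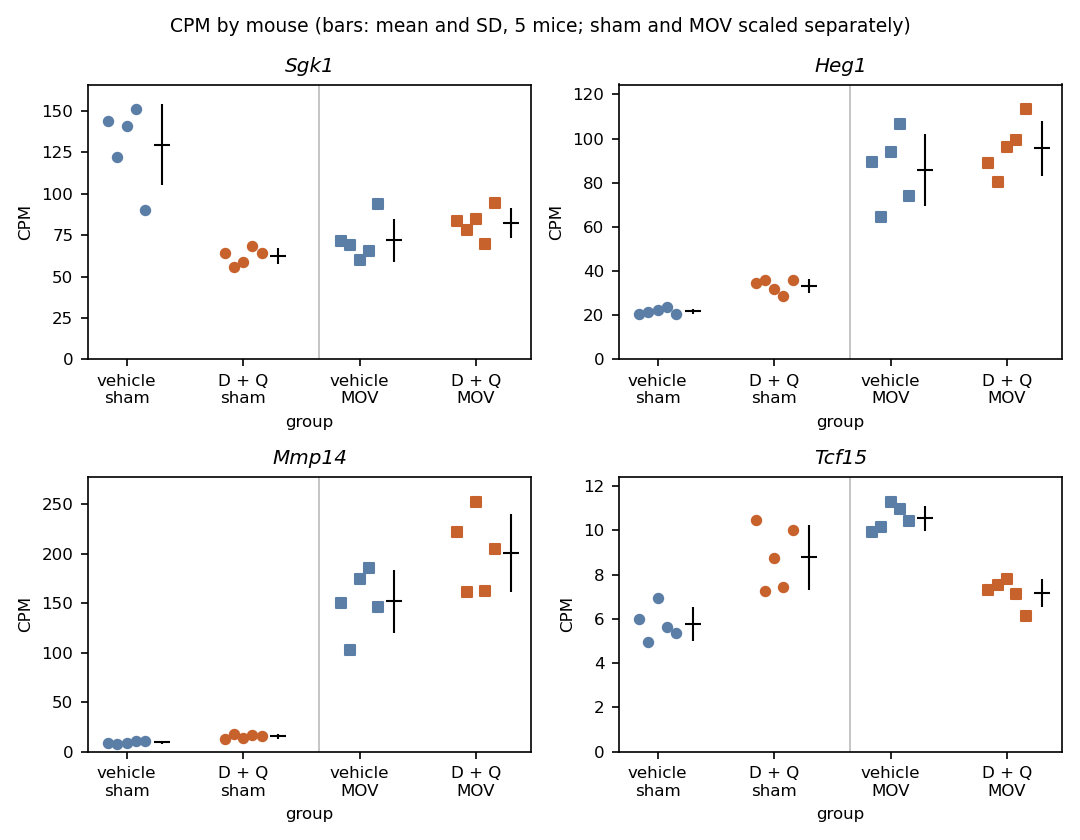
CPM of Sgk1, Heg1, Mmp14 and Tcf15 in each of the 20 mice by group (circles, sham; squares, MOV; blue, vehicle; orange, D + Q), with the mean and SD of 5 mice beside each group and sham and MOV libraries scaled separately. Sgk1 is highest in vehicle sham mice 1 to 4, Heg1 and Mmp14 are higher with D + Q in sham muscle and much higher in both MOV groups, and Tcf15 is higher with D + Q in sham and lower in MOV muscle.

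The matrix and respiratory chain families lay on the same side in both surgeries. Collagen chains had a median log2 fold change of 0.406 in sham and 0.316 in MOV muscle, with 12 of 29 and 11 of 31 higher at an unadjusted p under 0.05. Leucine-rich proteoglycans had 0.369 and 0.426, with 3 of 12 and 10 of 13 higher, and matricellular proteins 0.366 and 0.252, with 12 of 21 and 3 of 22. The nuclear respiratory chain subunits had -0.119 and -0.169, with 27 and 41 of 76 lower. Interferon-stimulated genes had -0.243 and 0.117, and endothelial markers 0.132 and -0.0609. The differences between these medians were not tested.

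Beyond the 30, the genes closest to the threshold among those named by rule were Eng, Adamts1, Col4a2 and Tcf15, with adjusted p from 0.0564 to 0.0644 in edgeR. In each the lowest D + Q mouse lay above the highest vehicle mouse. The groups were also apart in 29 of the 30 called genes. All of these have small p in the same mice, so the separation adds no support. DESeq2, the tool the study used for overloaded muscle, called 133 genes (0.955%), 102 higher (0.732%) and 31 lower (0.223%), and these included all 30.

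The promoter windows of the called genes were searched on both strands for further motifs. Each is given as its share of the 33 windows of called genes, of the 13283 windows of genes tested and of all 32851 windows. The TEAD site GGAATG stood in 18.2%, 12.5% and 14.7%, the AP-1 site TGANTCA in 6.1%, 5.1% and 7.8%, and the TATA box TATAAA in 18.2%, 7.7% and 13.6%. The clock factors' E-box CACGTG stood in 6.1%, 9.8% and 7.2%, the forkhead site GTAAACA in 3.0%, 2.7% and 3.6%, and the CArG box in 3.0%, 1.3% and 1.6%. The antioxidant core TGACNNNGC stood in 6.1%, 14.3% and 12.4%, and the SMAD element GTCTAGAC in 0.0%, 0.2% and 0.2%. With 33 windows 1 window is 3.0%, and 8 of the 30 genes were not among the windows used, so these shares describe 22 genes.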

How the data were processed

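RNA-seq of bulk plantaris was measured in 20 mice, 1 library per mouse and 5 mice in each of the 4 groups of treatment and surgery. According to the methods and the labels, the authors aligned reads to GRCm39 with STAR 2.7.8a, counted them per gene in Partek by expectation maximization, dropped genes under 10 counts, and deposited estimated counts that were not normalized. Such counts share reads between genes, so 29.8% of values were not whole and were rounded. Whether counting used strand is not given in the sources used here. The depth of each library limits the precision of genes with few counts. The p-values set the difference between groups against the spread between mice together with counting error.

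Genes with 10 counts in 5 of the 10 sham mice were tested with edgeR 4.0.16 in R 4.3.3 (limma 3.58.1), with TMM factors, robust quasi-likelihood dispersion and the groups as the model, and adjusted by Benjamini-Hochberg over all genes tested, at a threshold of 0.05. MOV mice were fitted likewise, and the interaction over all 20 mice. The code was tested on simulated data. Of all rows, 96.6% matched GENCODE by name for GRCm39 positions, 20 rows carried a repeated name, and promoter windows came from RefSeq for GRCm38.p6 and were matched by symbol.

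The comparison and the 44 gene lists were chosen with earlier results of these data known. Named are the genes called, the study's genes and senescence markers, up to 4 members of each list with the smallest p under 0.05 (or the 2 most abundant where none passed), and the interaction genes, 149 in all. Alternatives were other scalings, count minimums and tools (DESeq2 1.42.0, limma-voom with sample weights, edgeR without the robust option), a replicate block, a spline term for the length and GC content of each gene, a fit of all 20 mice, and leaving out each mouse in turn. The replicate numbers were checked for pairing and did not pair the mice. Promoter windows for 8 called genes and the genes Ly6g, Elane and Epb42 were not analysed here. A few named genes of these lists are not reported here, although the counts include them.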

Additional observations from a re-analysis of the deposited data

Results flagged for a closer look

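In 22 of 298 sets of 5 mice, 1 mouse lay far from the other 4 by Dixon's test, and chance flags about 1 in 20 such sets. Vehicle mouse 5 accounted for 7 of them. It was high for Pdk4 at 653.5 CPM (others up to 382), Angptl4 at 5.21 CPM (others up to 1.93), Ppargc1a at 53.2 CPM (others up to 40.01), Rhoj at 8.88 CPM (others up to 7.87), Actn4 at 33.9 CPM (others up to 28.7) and Fabp4 at 96.4 CPM (others up to 86.8), and low for Pdp1 at 85.8 CPM (others from 133).

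Vehicle mouse 2 was high for Ppargc1b at 12.8 CPM (others up to 10.0), Gapdh at 3627 CPM (others up to 3230) and Tpi1 at 2093 CPM (others up to 1815), and low for Bmpr1a at 71.4 CPM (others from 86.4) and Scx at 4.96 CPM (others from 6.23). Vehicle mouse 1 was low for Jund at 35.4 CPM (others from 47.4) and high for Mbp at 12.03 CPM (others up to 7.69).

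Among D + Q mice, mouse 2 was high for Col1a1 at 149.7 CPM (others up to 72.4) and Fstl1 at 103.2 CPM (others up to 57.8) and low for Spry1 at 14.7 CPM (others from 16.6). D + Q mouse 1 was low for Mmp2 at 20.5 CPM (others from 34.6) and mouse 3 was low for Fam43a at 6.88 CPM (others from 7.78). D + Q mouse 4 was high for Clic4 at 53.9 CPM (others up to 45.0) and low for Foxo6 at 3.10 CPM (others from 6.10), and mouse 5 was high for Bmf at 3.49 CPM (others up to 2.13).

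The effect of D + Q differed between sham and MOV muscle in the interaction test for Sgk1, by -1.25 on the log2 scale, and for Tcf15, by 1.16. Every D + Q sham mouse was below every vehicle sham mouse for Sgk1. For Tcf15 every D + Q mouse was above every vehicle mouse in sham and below in MOV muscle.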

How the results depend on the processing

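All 30 genes called kept their direction under every alternative in which they were tested, but their number did not hold. It was 30 with RLE size factors, 34 with limma-voom and 35 with 10 counts required in every mouse. It was 49 with total counts only, 133 with DESeq2, 67 with no count minimum, 6 without edgeR's robust option, 9 once gene length and GC content were corrected for and 19 in a fit of all 20 mice, and ran from 2 to 74 with a mouse left out. A replicate block gave 19 calls, 12 of them among the 30. The numbers do not pair the mice, since same-numbered mice had correlations of their deviations from -0.0557 to 0.0993 and 1 of 5 D + Q mice correlated best with its own number. The interaction gave 2 genes under 8 alternatives, 1 (Tcf15) with the replicate block, and 2 to 3 with a mouse left out, the third being Llph-ps2 without D + Q sham mouse 2. The 27 genes with the same direction in MOV muscle became 23 to 27 with a mouse left out. The cause of these changes was not tested.

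Among named genes that were not called, the sign of the log2 fold change turned with a mouse left out for Car3 (from -0.017 to 0.10), Cd3e (from -0.19 to 0.12), Cdh15 (from -0.071 to 0.025), Cdkn2b (from -0.38 to 0.11) and Lyz2 (from -0.10 to 0.37). Counts of list members under other scalings and with mice left out were chosen after seeing the data. Besides those given above, the members higher at an unadjusted p under 0.05 went from 3 to 6 for the SASP list without vehicle mouse 2, the leucine-rich proteoglycans without D + Q mouse 4, and the NRF2 targets and growth factor signalling without D + Q mouse 1, where the last became 1 without vehicle mouse 1. Smooth muscle markers went from 4 to 2 without vehicle mouse 2. With total counts the median of all genes was 0.0321. Counting depth limits genes at a few CPM, such as Mmp3, Adamts4 and Nr4a2.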
